A study of Sus scrofa with 220 samples.

Results

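The trophectoderm is the outer epithelium of the blastocyst, which pumps fluid into the cavity and later forms the fetal part of the placenta. Genes described as its regulators include the zinc finger factors GATA2 and GATA3, the factor TFAP2A, the factor TEAD1, through which the Hippo pathway acts on transcription, the homeobox factor CDX2, and DAB2, an adaptor protein of clathrin-mediated endocytosis. These 6 genes were followed through single cells of pig embryos, of 22840 gene entries in all. Each was found by its symbol in a table of Ensembl pig gene names, as GATA2 (ENSSSCG00000011618), GATA3 (ENSSSCG00000011125), TFAP2A (ENSSSCG00000001036), TEAD1 (ENSSSCG00000013399), CDX2 (ENSSSCG00000009317) and DAB2 (ENSSSCG00000016857). A filter on low values kept 14721 genes for testing, and 5 of the 6 regulators passed it. CDX2 did not.

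In mammalian embryos the outer cells of the morula polarise, Hippo signalling is switched off in them, and coactivators enter the nucleus and bind TEAD factors. GATA3 and, in the mouse, CDX2 are known targets of this route, and GATA2, GATA3 and TFAP2A act together in trophoblast cells. The inner cell mass (ICM) that remains then separates into the epiblast (EPI), the source of the fetus, and the hypoblast (HYPO), which lines the yolk sac and is an epithelium too.

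The cells came from embryos of artificially inseminated crossbred sows, with no genetic or drug treatment, and each was picked by hand and sequenced with the Smart-seq2 protocol. The groups were morula (47 cells, 8 embryos), ICM (24 cells, 7 embryos) and trophectoderm (TE; 28 cells, 10 embryos) of the early blastocyst (EB), EPI (25 cells, 4 embryos) and HYPO (36 cells, 5 embryos) of the late blastocyst (LB), and EPI (48 cells, 4 embryos) and HYPO (12 cells, 3 embryos) of the spherical embryo (Sph). TE was collected from the early blastocyst alone: it was removed by immunosurgery from late blastocysts, and spherical EPI and HYPO were dissected by hand. Early blastocysts were dissociated whole, and the authors told their lineages apart by clustering on expression and known markers. They describe TE cells by GATA2, GATA3 and DAB2. Differences of TE from other groups in these 3 genes may thus be partly built into the labels. The clustering used all expressed genes, so this may also hold for other genes between TE and ICM. Counts on genes ran from 1012604 to 5696373 per cell. Adding up the counts of all cells of 1 embryo and group gave 41 sums of 1 to 19 cells, 6 of them of 1 cell, and 1 morula cell had no embryo. Levels below are log2(CPM + 1) of these sums, and TPM values, which allow for gene length, are per cell.

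The TE markers matched to the files (KRT8, KRT18, CLDN4, CLDN8, ANXA6 and TFAP2C) summed to a median of 43802 TPM in TE cells and of 1032 TPM in ICM cells. They were also high in Sph HYPO cells, at a median of 31633 TPM, where the medians of CLDN8 and TFAP2C were 0. A few cells went against their labels. The cell E6-ER2, labelled TE and the only cell of its embryo, had the lowest sum of TE markers of all 28 TE cells (304.9 TPM), no KRT8 read and 117.8 TPM of PDGFRA, where the other TE cells had at most 13.4 TPM. The TE cell AB6 had the second lowest sum (2855 TPM) and 393.7 TPM of KLF17, an ICM and epiblast marker, which was at 367.1 TPM in E6-ER2 and at up to 241.6 TPM in the other TE cells. KLF17 also reached 683.7 TPM in the morula cell X17. Of the 6 ICM and epiblast markers matched, 1 was above TPM 1 in E6-ER2 and 2 in AB6, and 4 had a median of 0 in ICM cells. Of 8 hypoblast markers, 3 were above TPM 1 in E6-ER2 and 1 in AB6. The LB HYPO cell AO8 had none of 8 hypoblast markers above TPM 1. These cells were singled out after their values were seen, and the calls that turn on them are given with and without them. E6-ER2 and AB6 had no GATA2 or GATA3 read and the lowest DAB2 of the TE cells (0 and 117.3 TPM). Leaving them out thus favours TE in these genes, so the outcome without them is no support for a call.

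**Figure D1:**
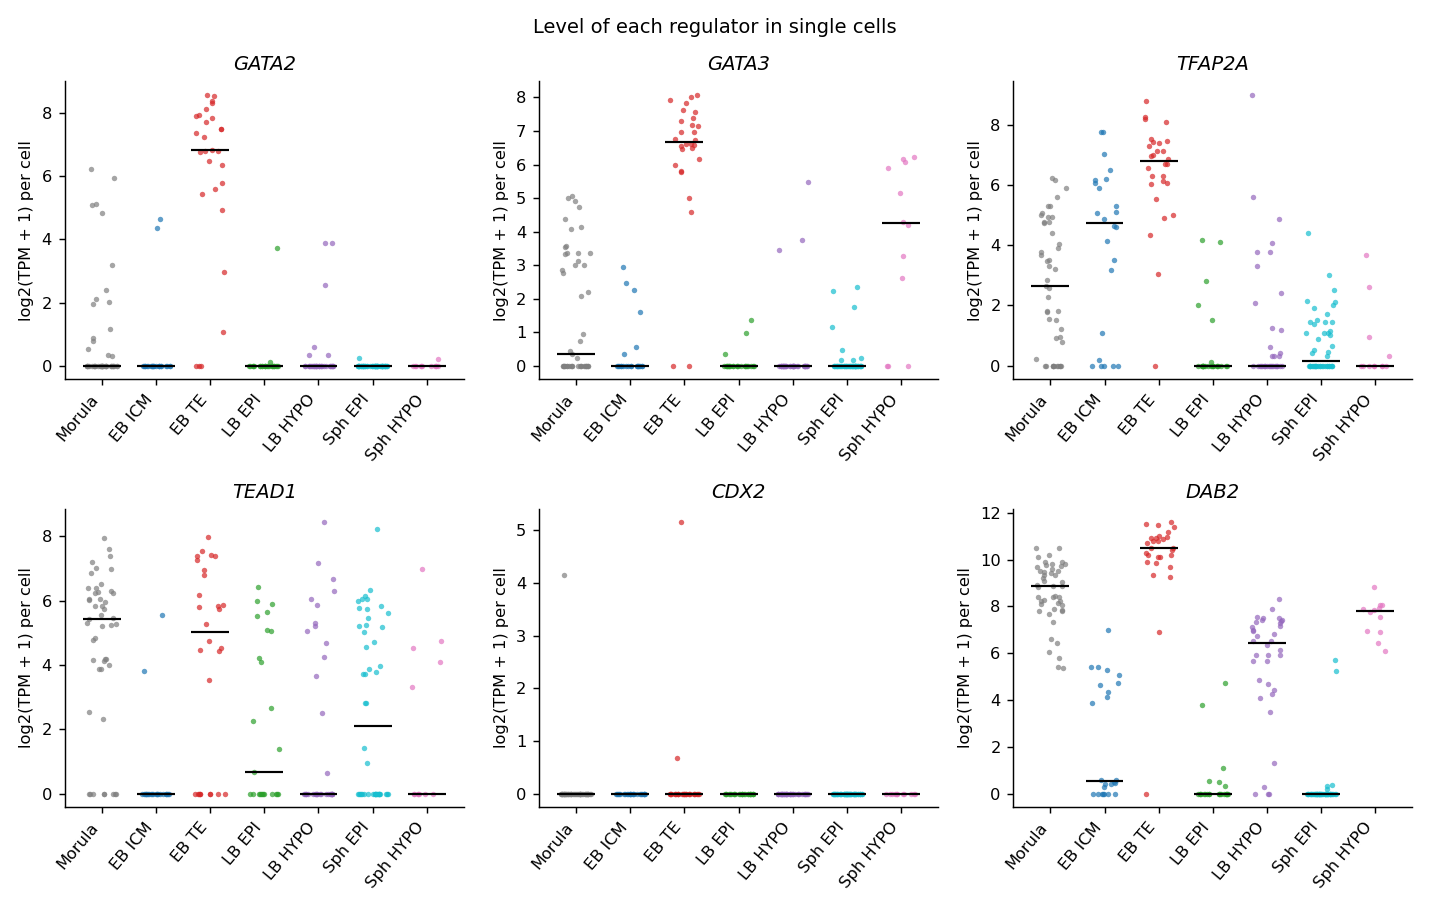
Level of the 6 regulators in each of the 220 cells, as log2(TPM + 1) on the vertical axis, by group on the horizontal axis; each point is a cell and each black line the median of its group. GATA2 and GATA3 lie high in TE (medians of 111 and 100 TPM), DAB2 is above TPM 1 in all 47 morula cells and 27 of 28 TE cells, and CDX2 stays at 0 in nearly every cell.

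GATA2 and GATA3 were at their highest in TE. GATA2 was above TPM 1 in 25 of 28 TE cells (89.3%, exact 95% interval 71.8 to 97.7%) and GATA3 in 26 of 28 (92.9%, 76.5 to 99.1%). In the ICM the counts were 2 of 24 cells for GATA2 (8.33%, 1.03 to 27%) and 4 of 24 for GATA3 (16.7%, 4.74 to 37.4%). The TE median was 111 TPM for GATA2 and 100 TPM for GATA3, and all other groups had a GATA2 median of 0. Both genes were detected together in 25 TE cells, GATA3 alone in 1 and neither in 2, and the latter pair were E6-ER2 and AB6. The 2 ICM cells with GATA2 were AE18 (24.2 TPM) and AA14 (19.6 TPM). AA14 also had 6.75 TPM of GATA3, 124.7 TPM of DAB2 and the highest sum of TE markers of all 24 ICM cells (4119 TPM). AE18 had 4.48 TPM of GATA3 but 0.225 TPM of DAB2, and its sum of TE markers (1441 TPM) ranked 17 of 24 from the lowest.

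By embryo, the GATA2 level in TE ran from 0 to 9.37 with a median of 7.78 and a mean of 7.15 ± 2.63 (SD, n = 10). Without the embryo of E6-ER2 it ran from 6.56 to 9.37, at 7.94 ± 0.83 (n = 9). In the ICM, embryo AE reached 4.58 and AA 2.98, and the other 5 were at 0. All TE embryos but E6-ER thus lay above all ICM embryos. The fitted log2 fold change of GATA2, TE over ICM, was 5.85 ± 1.56 (SE), and it missed the threshold of 0.05 (edgeR quasi-likelihood test, adjusted p = 0.0841). With the embryo as a block, which compares TE and ICM of the same blastocyst, it was 10.4 with an adjusted p of 0.018, in a fit that called 0.605% of genes. Without TE embryo E6-ER the adjusted p was 0.0297, in a fit that called 1.25%, and without ICM embryo AE it was 0.0352. Without the cells E6-ER2 and AB6 it was 0.0275 for GATA2, 0.000381 for GATA3 and 5.09e-06 for DAB2, in a fit that called 1.39%. Both cells lacked GATA2 and GATA3 reads, so these lower values follow in part from the choice of cells.

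GATA3 rose more clearly. Its TE levels ran from 0 to 8.77 with a median of 7.55 and a mean of 7.07 ± 2.54 (SD, n = 10), or 7.86 ± 0.55 without E6-ER (n = 9, 7.31 to 8.77). The ICM embryos were at 2.46, 2.1, 0.95, 0.87 and 3 times 0, at 0.91 ± 1.02 (n = 7). No ICM embryo came near the 9 TE embryos above 7. The log2 fold change was 7.28 ± 1.33 (adjusted p = 0.00828). Within the library pools with lower numbers, which are 4 of the 8 pools given in the labels, it was 8.04 (adjusted p = 0.00482), and within the 4 with higher numbers 6.15 (adjusted p = 0.214).

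DAB2 showed the widest gap of the group in absolute level. It stood at a median of 1444 TPM in TE cells and 0.447 TPM in ICM cells, and 27 of 28 TE cells (96.4%, 81.7 to 99.9%) against 10 of 24 ICM cells (41.7%, 22.1 to 63.4%) were above TPM 1. Its TE levels were 10.07 ± 3.57 (SD, n = 10), with E6-ER at 0 and the other 9 embryos between 10.196 and 11.79. ICM embryos lay between 0.64 (AD) and 6.06 (AA), at 3.50 ± 1.69 (n = 7), so E6-ER alone overlapped them. DAB2 was called in TE over ICM, with a log2 fold change of 6.93 ± 1.12 (adjusted p = 0.0036), and this was 6.82 within the pools with lower numbers (adjusted p = 0.00693) and 5.91 within those with higher numbers (adjusted p = 0.214).

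TFAP2A and TEAD1 differed less sharply between TE and ICM. TFAP2A was above TPM 1 in 27 of 28 TE cells and also in 18 of 24 ICM cells (75.0%, 53.3 to 90.2%). Its levels were 7.72 ± 0.89 in TE (SD, n = 10, 6.37 to 9.55) and 5.06 ± 1.96 in the ICM (n = 7, 1.56 to 7.49), and the 2 ranges overlapped. The log2 fold change was 2.09 ± 0.68 (adjusted p = 0.113). TEAD1 was above TPM 1 in 19 of 28 TE cells (67.9%, 47.6 to 84.1%) and in 2 of 24 ICM cells (8.33%, 1.03 to 27%). Its TE levels ran from 0 in embryos AG and E6-ER to 7.05 in AF, and 5 of 7 ICM embryos were at 0, with AC at 3.12 and AD at 3.49. The log2 fold change of TEAD1 was 4.27 ± 1.76 (adjusted p = 0.155).

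**Figure D2:**
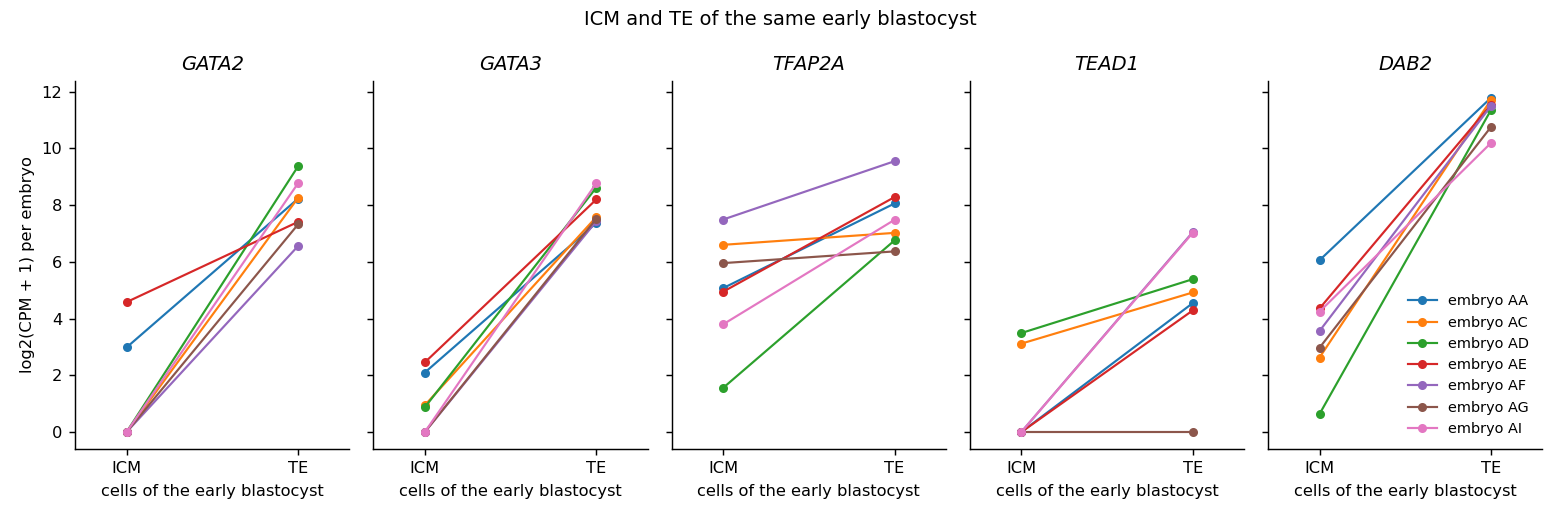
Levels of 5 regulators in the ICM and the TE of the same early blastocyst, as log2(CPM + 1) on the vertical axis; each line joins both sums of 1 of the 7 embryos that gave both cell types. Every line rises for GATA2, GATA3, TFAP2A and DAB2, and TEAD1 of embryo AG is at 0 on both sides.

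The 7 blastocysts that gave both cell types allowed a comparison within the embryo. TE was above ICM in 7 of 7 embryos for GATA2, with a median difference of 7.32 (2.83 to 9.37) on the log2 scale, and likewise in 7 of 7 for GATA3, at 7.43 (5.28 to 8.77). DAB2 was higher in TE in 7 of 7 by 7.79 (5.73 to 10.72), and TFAP2A in 7 of 7 by 2.99 (0.41 to 5.20). TEAD1 was higher in 6 of 7, since embryo AG had no read in either. Of the 5 regulators tested, 2 were called in TE over ICM (GATA3 and DAB2), against 0.754% of all genes called in either direction and 0.183% called higher in TE. Without embryo E6-ER, GATA2, GATA3 and DAB2 separated TE from ICM without overlap, as did 0.326% of all genes in that direction. Since the lineages were told apart by expression, with these 3 genes among the traits of TE, neither count is an independent test of them. The same holds for the pairs within embryos.

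**Figure D3:**
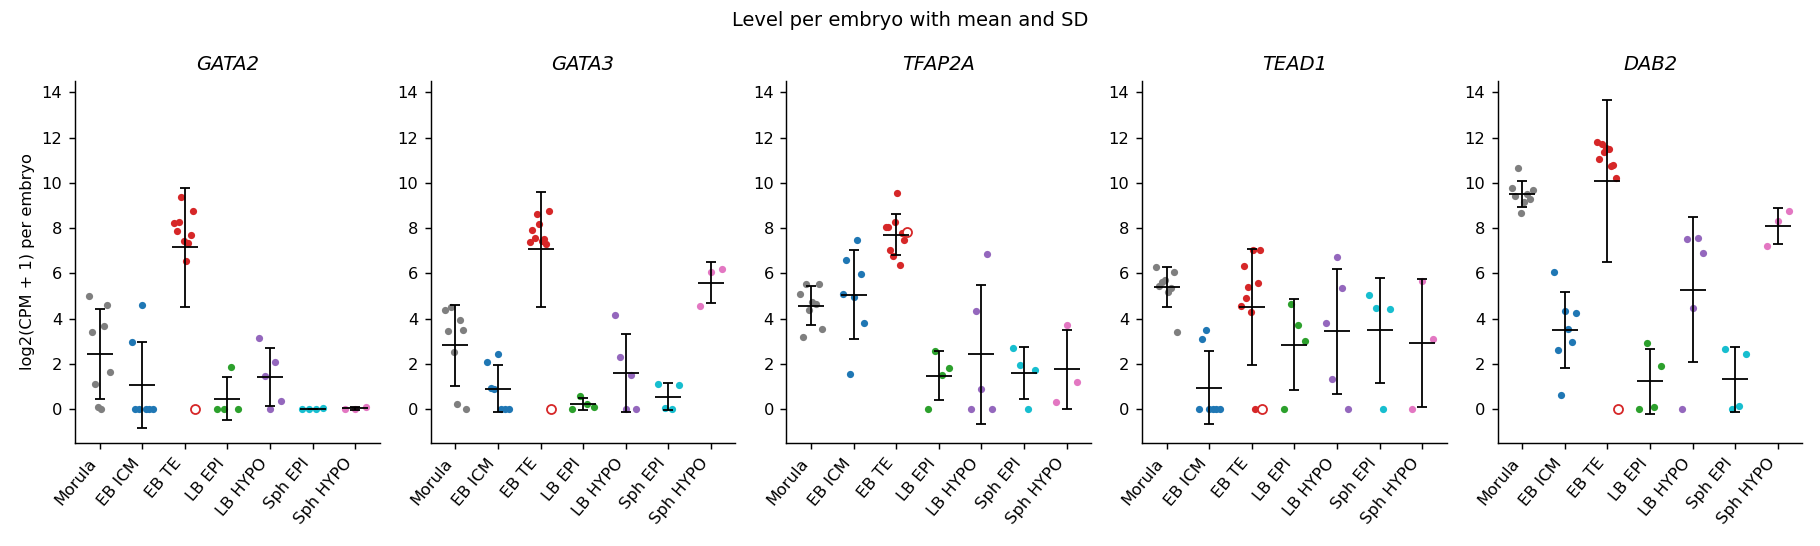
Level of 5 regulators per embryo, as log2(CPM + 1) on the vertical axis, by group; each point is the summed cells of 1 embryo, black bars give the mean and SD, and the open circle is embryo E6-ER, which holds the single TE cell E6-ER2. Apart from that circle, GATA2 in TE lies between 6.56 and 9.37 and DAB2 in TE between 10.196 and 11.79; GATA3 is high in Sph HYPO as well, from 4.55 to 6.18.

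The morula cells were examined for early expression, and the regulators fell into 3 patterns there. DAB2 was above TPM 1 in all 47 morula cells (100%, 92.5 to 100%), between 40.2 and 1434 TPM with a median of 471 TPM. TEAD1 was above it in 39 of 47 cells (83.0%, 69.2 to 92.4%) and TFAP2A in 32 of 47 (68.1%, 52.9 to 80.9%). GATA3 passed in 20 of 47 (42.6%, 28.3 to 57.8%), GATA2 in 11 of 47 (23.4%, 12.3 to 38%). At a limit of TPM 10, GATA3 kept 19.1% of morula cells and GATA2 10.6%, so much of this detection was at low values: the highest morula cell had 32.5 TPM of GATA3 and 74.1 TPM of GATA2, where the highest TE cells had 270.3 and 380.6 TPM.

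The summed levels of the 2 GATA genes varied between morulae. GATA2 levels per morula were 5.02 (ER), 4.61 (X), 3.69 (W), 3.41 (S), 1.64 (Y), 1.10 (T), 0.11 (U) and 0 (V). GATA3 levels were 4.51 (T), 4.37 (ER), 3.96 (W), 3.51 (X), 3.44 (S), 2.52 (U), 0.21 (V) and 0 (Y). By these sums embryos ER, W, X and S were high in both, and T was high in GATA3 with little GATA2. V, a sum of 2 cells, was low in both. Much of the GATA2 came from single cells. S19 held all 169 counts of S, ER1 held 164 of the 176 of ER, and W5 held 175 of the 186 of W. Whether whole morulae differ was not tested. Within morulae, 9 cells had both genes above TPM 1, 11 had GATA3 alone, 2 had GATA2 alone and 25 had neither, and all 20 cells with GATA3 had DAB2. All 5 tested regulators were above TPM 1 in 8 morula cells, in 18 of 28 TE cells and in 0 of 24 in the ICM, where a count of 0 allows up to 12.5%.

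Within the morula, DAB2 followed the keratins most closely. Across the 47 morula cells its Spearman correlation was 0.63 with KRT8 and 0.65 with KRT18, the keratin pair of simple epithelia. In the 5 morulae with at least 6 cells, the correlation of DAB2 with KRT18 ran from 0.25 to 0.86, and was positive in 5 of 5. GATA3 and KRT18 gave 0.43 over all morula cells and 0.22 to 0.93 within these morulae. GATA2 and GATA3 gave 0.45 over all cells and -0.31 to 0.65 within embryos. These cells share embryos and differ in depth, and many values are 0, so the figures describe the cells and carry no test.

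TE against morula separated the regulators in another way. TFAP2A rose by 3.26 ± 0.51 on the log2 scale (adjusted p = 0.0022), from 4.58 ± 0.85 in morulae (SD, n = 8, 3.20 to 5.52) to 7.72 ± 0.89 in TE (n = 10), and the ranges did not overlap, as for 0.0679% of all genes in that direction. GATA3 was higher in TE by 4.46 ± 1.02 (adjusted p = 0.0367) and GATA2 by 4.68 ± 1.13 (adjusted p = 0.0467). TEAD1 differed by 0.11 ± 0.89 (adjusted p = 1.0), with morula levels of 5.38 ± 0.88. So 3 of 5 regulators were called, against 0.808% of all genes in either direction and 0.251% higher in TE. Without the cells E6-ER2 and AB6 the adjusted p was 0.0065 for GATA2 and 0.00278 for GATA3, in a fit that called 1.53% of genes. With these cells both calls were close to the threshold. That of GATA2 was lost without any 1 of 17 of the 18 embryos, E6-ER being the exception, with adjusted p from 0.0506 to 0.0882. That of GATA3 was lost without TE embryo AA, AD, AE or AI or morula ER, S, T, U, W or X, with adjusted p from 0.0508 to 0.0744. Within pools the adjusted p was 0.242 and 0.126 for GATA2, 0.0567 and 0.146 for GATA3, and 0.121 and 0.0245 for TFAP2A, in the pools with lower and higher numbers.

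DAB2 was high in the morula as well, with a median of 471 TPM per cell against 1444 TPM in TE. Morulae lay between 8.65 and 10.64, at 9.51 ± 0.57 (SD, n = 8), and the difference of TE over morula was 1.5 ± 0.66 (adjusted p = 0.178). Without the cells E6-ER2 and AB6 it was 1.66, with an adjusted p of 0.00103, and without E6-ER alone, where the TE mean was 11.19 ± 0.53 (n = 9), the adjusted p was 0.0011. In the ICM it was far lower: the log2 fold change of morula over ICM was 5.35 ± 0.70 (adjusted p = 0.000226), and every morula lay above every ICM embryo, as for 0.822% of all genes in that direction. Within pools this was 5.47 (adjusted p = 0.051) and 4.40 (adjusted p = 0.0742). It was 1 of 5 regulators called in that comparison, where 2.45% of all genes were called in either direction and 0.971% higher in the morula. TEAD1 was 4.10 ± 1.43 higher in the morula (adjusted p = 0.108), GATA3 2.78 ± 1.53 (adjusted p = 0.301) and GATA2 1.11 ± 1.72 (adjusted p = 0.844), while TFAP2A stood at -1.22 ± 0.72 (adjusted p = 0.354).

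CDX2 was hardly detected. It had reads in 3 of 220 cells. The TE cell AD15 held 74 counts (34.6 TPM), the morula cell ER2 held 27 counts (16.8 TPM), and the TE cell AC22 held 1 count. No ICM, LB or Sph cell had a read. For 0 of 24 in the ICM the share could still be 12.5%, and for 0 of 48 in Sph EPI 6.25%. Cell AD15 also had 319.7 TPM of GATA2, 157.1 TPM of GATA3, 51.9 TPM of TEAD1, 1177 TPM of DAB2 and 19.1 TPM of TFAP2A. In TE the share above TPM 1 was 1 of 28 cells (3.57%, 0.0904 to 18.3%). Intervals and limits cover counting error only, and how well this gene entry captures the transcript was not tested.

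**Figure D4:**
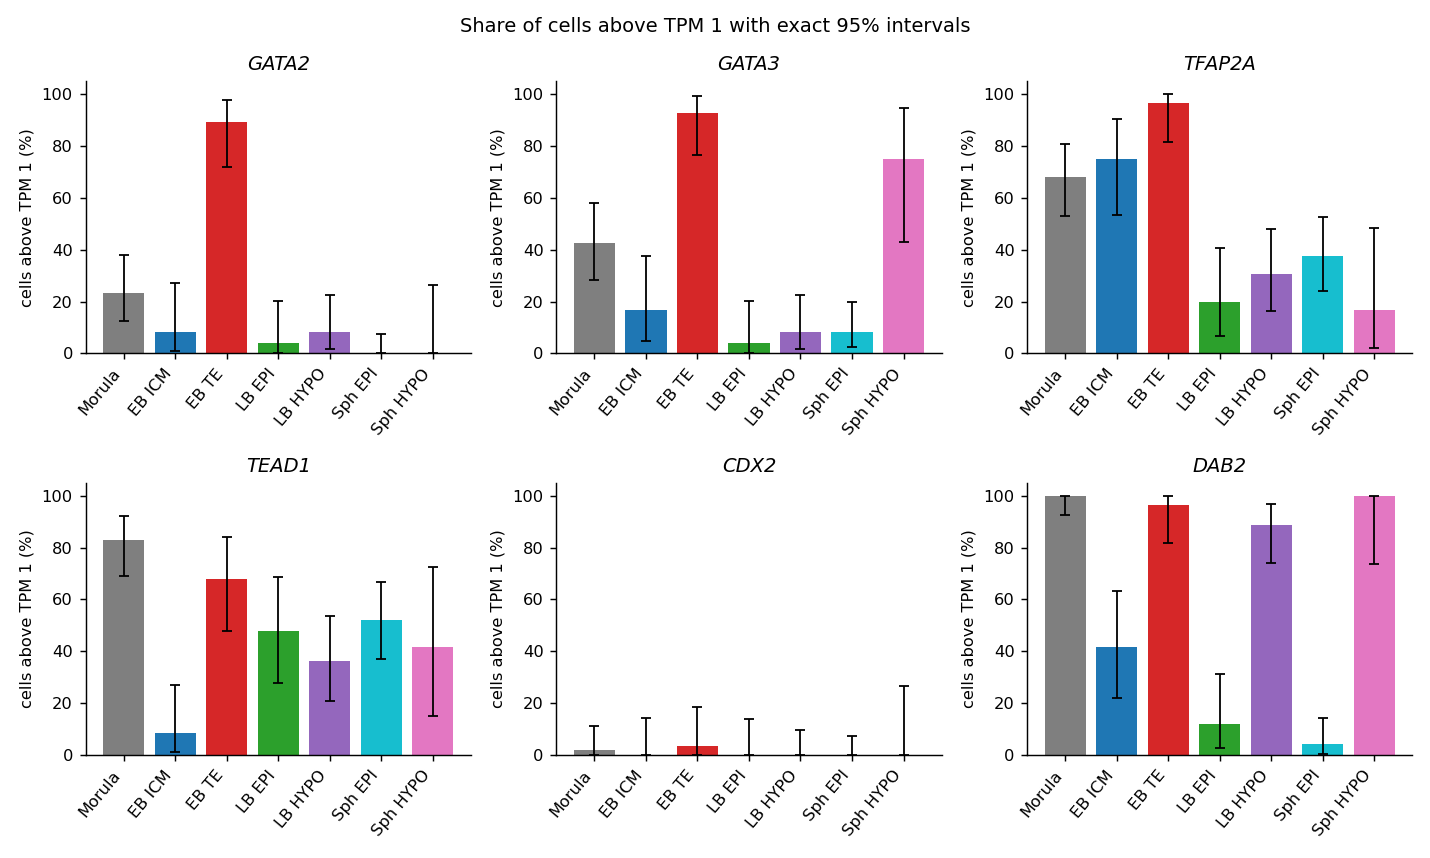
Share of cells above TPM 1 for the 6 regulators, in percent on the vertical axis, by group; bars start at 0 and error bars are exact 95% binomial intervals over cells. GATA3 reaches 92.9% in TE, 75.0% in Sph HYPO and 42.6% in morula cells, GATA2 89.3%, 0% and 23.4%.

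DAB2 was detected in most hypoblast cells of both stages, and GATA3 in most of those of the spherical embryo. GATA2 was above TPM 1 in 3 of 36 LB HYPO cells (AL5, AM5 and AO28, at 4.89, 13.7 and 13.9 TPM) and in none of 12 Sph HYPO cells. DAB2 was above TPM 1 in 32 of 36 LB HYPO cells (88.9%, 73.9 to 96.9%) and in 12 of 12 Sph HYPO cells, against 3 of 25 LB EPI cells and 2 of 48 Sph EPI cells. Sph HYPO levels of DAB2 were 7.23, 8.29 and 8.76, and Sph EPI levels were 0, 0.15, 2.46 and 2.64, with no overlap. The log2 fold change was 6.91 ± 1.59 (adjusted p = 0.0745), which missed the threshold, and the adjusted p was 0.0386 without EPI embryo D. In the LB, 4 of 5 HYPO embryos lay between 4.45 and 7.56, all above the 4 EPI embryos (0 to 2.91), while embryo AL, with 1 cell, was at 0. There the log2 fold change of DAB2 was 5.47 ± 1.84 (adjusted p = 0.18). HYPO was above EPI of the same embryo in 3 of 3 at both stages.

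GATA3 was above TPM 1 in 9 of 12 Sph HYPO cells (75.0%, 42.8 to 94.5%), with a median of 18 TPM and a highest value of 73.8 TPM. The 3 Sph HYPO embryos had levels of 4.55, 6.04 and 6.18, and the 4 Sph EPI embryos 0, 0.06, 1.05 and 1.11. These did not overlap, and the log2 fold change was 6.51 ± 1.77 (adjusted p = 0.128). GATA2 had 1 count in all 12 Sph HYPO cells and 1 in all 48 Sph EPI cells, so its size of change is not given. In the LB, GATA3 was above TPM 1 in 3 of 36 HYPO cells, 1 each of embryos AL, AM and AO, and in 1 of 25 EPI cells (log2 fold change 4.51 ± 2.46, adjusted p = 0.325).

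None of the 5 regulators was called between HYPO and EPI in the LB, where 1.92% of all genes were called (1.03% higher in HYPO), and none in the Sph, where 1.13% were (0.571% higher in HYPO). At unadjusted p under 0.05, DAB2 passed in the LB (p = 0.01081), which is 1 of 5 regulators where 20% of all genes (2943) passed, and DAB2 (p = 0.001224) and GATA3 (p = 0.003733) in the Sph, where 15.2% did, in the edgeR fit. DESeq2 called DAB2 in the LB, with 9.42% of all genes, and both genes in the Sph, with 9.86%. Of all genes, 4.22% were higher in Sph HYPO than in Sph EPI without overlap. The difference between stages was tested directly and none of 4 genes was called: it was 2.09 ± 2.56 for GATA3 (adjusted p = 0.975) and 1.53 ± 2.18 for DAB2 (adjusted p = 1.0), while 0.0408% of all genes were called.

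**Figure D5:**
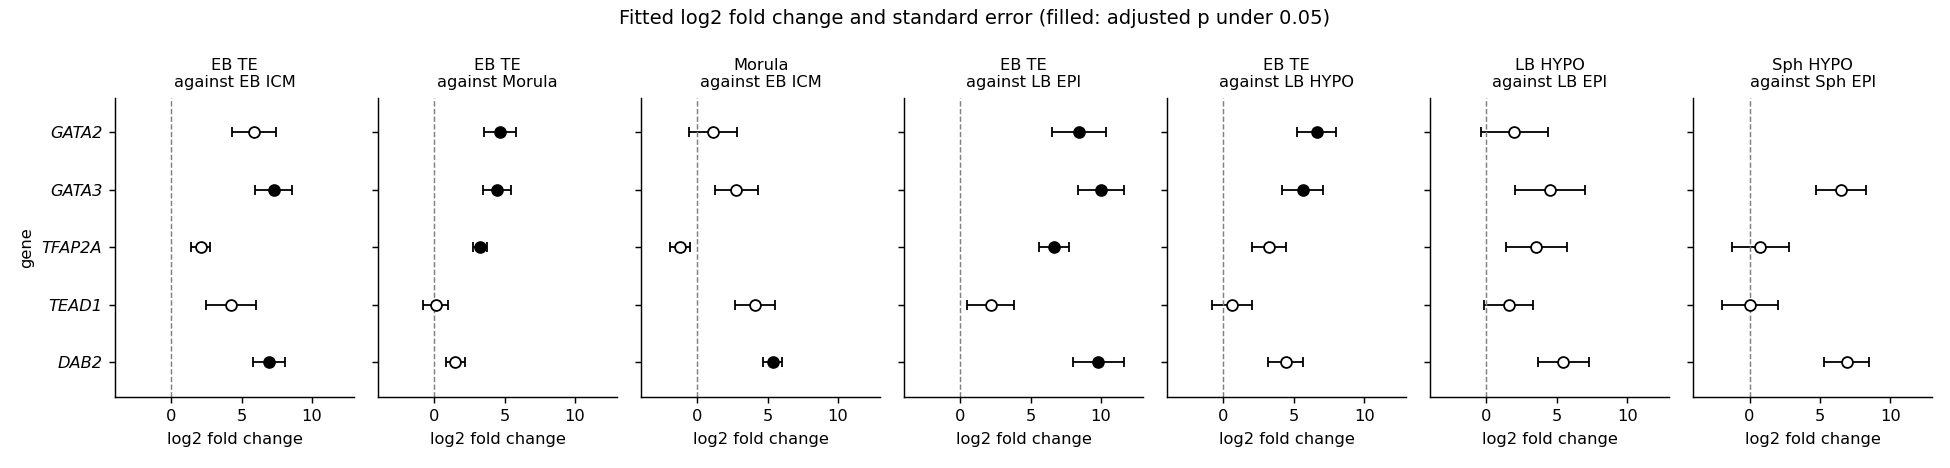
Fitted log2 fold change (horizontal axis) of 5 regulators in 7 comparisons, 1 panel each; a positive value is higher in the group named first, bars are standard errors, and filled points have an adjusted p under 0.05. TEAD1 is open in all 7 panels, DAB2 is filled for TE over ICM (6.93), morula over ICM (5.35) and TE over LB EPI (9.79), and GATA2 has no point in the Sph panel.

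TE was next set against the lineages of the late blastocyst. Since TE came from the early blastocyst alone, lineage, stage and way of isolation differ together here and cannot be told apart. This holds for LB EPI and LB HYPO alike. Over LB EPI, 4 of 5 regulators were called, against 5.03% of all genes in either direction and 0.924% higher in TE. The log2 fold changes were 9.98 ± 1.65 for GATA3 (adjusted p = 0.00175), 9.79 ± 1.81 for DAB2 (adjusted p = 0.004), 8.46 ± 1.92 for GATA2 (adjusted p = 0.0168) and 6.66 ± 1.08 for TFAP2A (adjusted p = 0.00147). LB EPI held 10 counts of GATA3 over its 25 cells, and its GATA2 came mainly from the cell AP6 (12.2 TPM). The TFAP2A levels of LB EPI were 0, 1.53, 1.84 and 2.58, all under the lowest TE embryo (6.37), a separation that 0.666% of all genes showed in that direction. TEAD1 was at 2.15 ± 1.64 (adjusted p = 0.524). Without the cells E6-ER2 and AB6 the same 4 were called, with adjusted p from 5.7e-06 (GATA3) to 0.00181 (GATA2), in a fit that called 5.23% of genes. Within each set of pools the 4 calls held, other than TFAP2A in the pools with lower numbers (adjusted p = 0.0689). These comparisons use the same TE sums as those with ICM and morula.

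Over LB HYPO, TE was higher in GATA2 by 6.62 ± 1.41 (adjusted p = 0.0123) and in GATA3 by 5.63 ± 1.45 (adjusted p = 0.0403), which is 2 of 5 regulators, with 2.83% of all genes called in either direction and 0.659% higher in TE. The GATA2 levels in LB HYPO were 3.15 (AL), 2.06 (AO), 1.44 (AM), 0.36 (AP) and 0 (AN), all under the TE embryos other than E6-ER, as for 0.856% of all genes without that embryo. DAB2 was higher in TE by 4.44 ± 1.25 (adjusted p = 0.0551), and by 4.71 with an adjusted p of 0.00251 without the cells E6-ER2 and AB6, in a fit that called 3.23% of genes. In the same fit the adjusted p was 0.00035 for GATA2 and 0.00417 for GATA3. Without E6-ER alone that of DAB2 was 0.00256. With all cells, GATA3 fell short of the threshold without any 1 of the TE embryos AA to AI or without HYPO embryo AM, AN, AO or AP, with adjusted p from 0.052 to 0.0914. Within pools the adjusted p was 0.0366 and 0.0179 for GATA3, and 0.00603 and 0.018 for GATA2.

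For TFAP2A the outcome of the edgeR fit turned on 1 LB HYPO cell. AO8 had 508.5 TPM of TFAP2A and 2757 of the 3352 counts of the group (82.2%), and the next highest LB HYPO cell had 47.2 TPM. With it, TE over LB HYPO was 3.22 ± 1.21 (adjusted p = 0.114). Without AO8 it was 5.57, with an adjusted p of 0.0112, in a fit where 2.76% of genes were called, and without the whole embryo AO the adjusted p was 0.0351. DESeq2 called TFAP2A with AO8 kept, so the call also depended on the method. The cell was also low in other hypoblast genes, with 0.227 TPM of DAB2, 0.173 TPM of PDGFRA and no GATA6 read. Such values were not particular to AO8: AL5 had 0 TPM of DAB2 and GATA6, and AN6 had 0 TPM of DAB2 and PDGFRA.

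Ranked by mean level, GATA2 stood highest in TE, followed by morula, LB HYPO, ICM, LB EPI, Sph HYPO and Sph EPI. TE differed from morula (exact permutation test of the means, two-sided, adjusted p = 0.0315 over 30 such tests), and no later neighbours did. For GATA3 the order was TE, Sph HYPO, morula, LB HYPO, ICM, Sph EPI and LB EPI. No neighbours passed (lowest adjusted p = 0.121, exact permutation test, Sph HYPO over morula). The ranges of that pair did not overlap, with the lowest Sph HYPO embryo at 4.545 and the highest morula at 4.513. So few embryos allow few splits, so the test cannot decide this pair after adjustment over 30 tests. The same limit holds, for every gene, for all pairs with Sph HYPO. It also holds for Sph EPI against LB HYPO or LB EPI, and for the ICM against either EPI. TFAP2A ran from TE through ICM, morula, LB HYPO, Sph HYPO and Sph EPI to LB EPI, and TE over ICM passed (exact permutation test, adjusted p = 0.0315). The edgeR fit of TFAP2A in TE over ICM missed the threshold, with a p of 0.00542 before adjustment over all genes, and DESeq2 called it (adjusted p = 0.0141). Of 27 alternative fits, DESeq2 and limma (adjusted p = 0.0161) were the only 2 to call it. With the embryo as a block the adjusted p of edgeR was 0.202. The permutation test took TE and ICM sums as unpaired, although 7 blastocysts gave both. TEAD1 ran from morula through TE, Sph EPI, LB HYPO, Sph HYPO and LB EPI to ICM, with wide overlap at each step. DAB2 ran from TE through morula, Sph HYPO, LB HYPO, ICM and Sph EPI to LB EPI (lowest adjusted p = 0.182, exact permutation test, morula over Sph HYPO). The test cannot decide that pair either, under the same limit of few splits.

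TEAD1 was detected in every group. The share of cells above TPM 1 was highest in the morula (83.0%) and TE (67.9%) and lowest in the ICM (8.33%). It was above TPM 1 in 25 of 48 Sph EPI cells (52.1%, 37.2 to 66.7%), 12 of 25 LB EPI cells, 13 of 36 LB HYPO cells and 5 of 12 Sph HYPO cells, and was called in none of the 7 comparisons with edgeR. In morula over ICM, DESeq2 (adjusted p = 0.0201, with 8.26% of genes called) and limma (adjusted p = 0.00664, with 4.52%) called it. Its level varied widely between embryos of a group, from 0 to 6.70 in LB HYPO and from 0 to 5.65 in Sph HYPO. Among the 27 TE cells other than E6-ER2 it had a coefficient of variation of 113%, with 8 cells at 0. DAB2 had 47.2% and no cell at 0, GATA3 58.7%, GATA2 77.7% and TFAP2A 80.3%.

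In the Hippo and TEAD pathway, 17 of 25 listed genes were matched and tested, and none was called between TE and ICM, with a median log2 fold change of -0.34 where that of all genes was 0.0. Nearest to a call there was WWTR1, a coactivator of TEAD factors, at -2.06 ± 0.54 (adjusted p = 0.0765), so lower in TE, followed by ANKRD1 (adjusted p = 0.109) and MOB1B (adjusted p = 0.113). CCN2, a known target of TEAD factors, was high in morulae (5.56 ± 0.91, SD, n = 8) and nearly without reads in TE, with 4738 and 4 counts. TE over morula was -9.24 ± 1.29 on the log2 scale (adjusted p = 0.00182), and morula over ICM 8.06 ± 1.27 (adjusted p = 0.00135). CCN1, of the same family, was the other gene of the list called in morula over ICM (adjusted p = 0.0218), but with 1 ICM count. TE was also lower than LB EPI and than LB HYPO in CCN2 (adjusted p = 0.000965 and 0.0423) and in ANKRD1, another target, which had no TE count (adjusted p = 0.0463 and 0.0472). No gene of the list was called between HYPO and EPI.

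Of 22 listed trophectoderm transcription factors, 14 were tested, and none was called between TE and ICM, with 8 of 14 above 0 and a median of 0.59. GRHL2, a factor of epithelial genes, stood at 7.68 ± 1.89 (adjusted p = 0.0611), followed by GRHL1 (adjusted p = 0.113) and SP6 (adjusted p = 0.135). GRHL1 had 100 TE counts and SP6 28, both with 0 ICM counts. GRHL2 was higher in morula than in ICM by 8.41 ± 1.34 (adjusted p = 0.00141), with 7716 and 18 counts, as was TBX3 by 1.98 ± 0.40 (adjusted p = 0.00962). Over LB EPI, 3 of 14 were higher in TE: ELF3 (adjusted p = 0.00698) and GRHL2 (adjusted p = 0.0266), both with no LB EPI count, and TBX3 (adjusted p = 0.04). In that comparison 0.924% of all genes were called higher in TE. TFAP2C, a close relative of TFAP2A, was higher in TE than in LB HYPO by 4.79 ± 0.74 (adjusted p = 0.000648), and lower in LB HYPO than in LB EPI by -3.90 ± 0.86 (adjusted p = 0.0359). ID2 was lower in TE than in LB HYPO (-7.32 ± 1.26, adjusted p = 0.00198). ID2 (4.80 ± 0.62, adjusted p = 0.00476) and TBX3 (adjusted p = 0.0115, with 1 count in EPI) were higher in Sph HYPO than in Sph EPI, and none of the list was called in TE over morula.

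The trophectoderm epithelium list, with 14 of 20 genes tested, was the only one of the 4 lists with a call between TE and ICM. KRT18 was higher in TE by 7.47 ± 1.03 (adjusted p = 0.000696), KRT8 by 6.80 ± 1.04 (adjusted p = 0.00235), and PARD6B, a component of the apical polarity complex, by 1.81 ± 0.42 (adjusted p = 0.0462). Of all genes, 0.183% were called higher in TE than in ICM. KRT8 and KRT18 are among the TE markers above, and the lineages were told apart by expression, so these calls are no independent test. Between morula and ICM, 4 of 14 were higher in the morula: KRT18, PARD6B, CLDN4 and KRT8, with adjusted p from 7.93e-05 to 0.00944. There 0.971% of all genes were called higher in the morula. TE exceeded the morula in KRT8 (4.12 ± 0.89, adjusted p = 0.028) and KRT18 (3.07 ± 0.74, adjusted p = 0.0472). In Sph HYPO over EPI, 4 of 14 were higher, namely PARD6B, CLDN4, KRT8 and OCLN, while GATA3 and DAB2 missed the threshold there. In that comparison 0.571% of all genes were called higher in HYPO. TE was above LB HYPO in KRT18 (5.46 ± 1.06, adjusted p = 0.00605) and below it in CLDN6 (-2.72 ± 0.74, adjusted p = 0.0499). LB HYPO was below LB EPI in KRT18 (-3.27 ± 0.35, adjusted p = 0.00078) and above it in OCLN (5.32 ± 1.02, adjusted p = 0.0175), and KRT18 alone of the 4 lists was called in the difference between stages (adjusted p = 0.0371).

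The DAB2 partners, 15 tested genes of endocytosis out of 20 listed, had few calls. In TE over ICM 10 of 15 were above 0, with a median log2 fold change of 0.60 (0.0 for all genes), and in TE over morula 12 of 15, with a median of 0.74 (-0.16 for all genes). None was called between TE and ICM, where DAB1, AP2M1 and CUBN had the smallest p (adjusted p from 0.115 to 0.383), in TE over morula or LB HYPO, or between HYPO and EPI. CUBN had 0 TE and 2 ICM counts. DAB1 had 608 TE counts, spread very unevenly over embryos (0.70 ± 2.21, SD, n = 10), and 0 ICM counts. PICALM, which acts in clathrin coat assembly, was called in morula over ICM (2.88 ± 0.76, adjusted p = 0.0485). LRPAP1, a chaperone of LDL receptor family proteins (3.07 ± 0.69, adjusted p = 0.0156), and AP2M1, a subunit of the clathrin adaptor AP-2 (1.51 ± 0.36, adjusted p = 0.0214), were called in TE over LB EPI. Of the list genes called above, TBX3 and ANKRD1 over LB EPI, CCN2, ANKRD1 and CLDN6 against LB HYPO, TFAP2C in LB HYPO against EPI, PICALM, PARD6B in TE over ICM, KRT18 in TE over morula and OCLN in the Sph kept their call under fewer than 1 in 2 of the alternatives.

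Across the 41 sums, the genes with the profile most like each regulator were ranked by Pearson correlation of the level, a description over sums that share groups and depth. GATA2 was most like GATA3 (r = 0.84), MEP1B (0.80) and ALDH3B2 (0.79). GATA3 was most like RGN (0.89), GATA2 (0.84) and TPM1 (0.80), and RGN had a mean level of 6.17 in TE, 4.36 in Sph HYPO and at most 1.34 in the other groups. TFAP2A was most like KRT32 (0.83), ACSL6 (0.81) and NDUFA11 (0.76). DAB2 was most like BLVRB (0.83), SEPTIN7 (0.81) and the nucleoside transporter SLC28A3 (0.81), which was at 10.66 in morula, 9.73 in TE, 6.68 in Sph HYPO and 0.04 in Sph EPI. TEAD1 had no gene above 0.66 (CEP63).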

How the data were processed

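Single cells were sequenced with Smart-seq2. The authors trimmed the reads, aligned them with HISAT2 2.1.0 to pig genome build Sscrofa10.2 and counted unique reads on Ensembl genes with HTSeq. Cells were left out by the authors where gene reads were few, where mitochondrial reads were many, or where they lay apart in a t-SNE plot. The deposited counts are raw reads per gene, without normalization, and the authors derived TPM from them. The deposited TPM sum to 1000000 per cell over the Ensembl entries, to which the authors added 16 entries. No 2 cells had identical counts. Groups came from the labelled cell type, which for the early blastocyst rests on clustering of expression and known markers. The embryo was read from the letters of the cell identifier, which is less certain for E6-ER2 and AP-ER2.

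Counts were summed per embryo and group, genes above TPM 1 in 3 or more cells entered, and sums were normalized with TMM and compared in pairs of groups with the quasi-likelihood test of edgeR 4.0.16 (R 4.3.3), with Benjamini-Hochberg adjustment over 14721 genes and a threshold of 0.05 ("called"). The SE is the log2 fold change divided by the square root of F. Intervals are Clopper-Pearson at 95%, limits for 0 use 3 counts, and both come from scipy 1.17.1, which also gave the permutation tests. Pairing comes from the embryo: sums of the same embryo are from the same animal, although their residuals correlated little (median r of 0.044 over 7 pairs in the EB, 0.025 over 3 in the LB and 0.064 over 3 in the Sph). The embryo entered as a block among the alternatives, which also were DESeq2 1.42.0, limma 3.58.1 on mean log2(TPM + 1), no TMM, no filter, all groups in one fit, 4 of the 8 library pools at a time, and each embryo left out. Leaving out single cells was added after seeing the data.

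The regulators and lists were chosen with earlier results of these data known, and the study names several of them for these cells. Genes were named by a rule: the regulators, the 3 genes most like each, up to 4 called genes with the smallest p per list and comparison, and the 3 with the smallest p per list in TE against ICM.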

Additional observations from a re-analysis of the deposited data

Results flagged for a closer look

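Of 30 groups of 4 to 10 embryos checked for an embryo far from the others, 7 gave one. The check is set to flag about 1 in 20 by chance for normally spread values. Many levels here lie at a floor of 0, so that rate does not apply. Where all other embryos are at 0, as for GATA2 in LB EPI and Sph EPI, any read gives a flag. In TE, embryo E6-ER, which is the single cell E6-ER2, was at a level of 0.0 in GATA2, in GATA3 and in DAB2, while the nearest TE embryo was at 6.56, 7.31 and 10.196. TEAD1 was at 0.0 in Sph EPI embryo E, with the nearest at 4.43, and at 3.39 in morula Y, with the nearest at 5.19. GATA2 was at 1.87 in LB EPI embryo AP, where the others were at 0, and at 0.035 in Sph EPI embryo F, which is 1 count. What sets these embryos apart was not tested.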

How the results depend on the processing

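Of the 5 comparisons with a called regulator, TE against LB EPI kept 4 called regulators on leaving out any embryo (4 to 4). The number called in TE against ICM (2) was 0 in the pools with higher numbers, 4 with DESeq2 and with limma, and 2 to 3 on leaving out an embryo. In TE against LB HYPO (2) it was 4 in the pools with lower numbers and with DESeq2, and 1 to 3 on leaving out an embryo. In TE against morula (3) it was 1 and 0 in the pools with higher and lower numbers, and 1 to 4 on leaving out an embryo. In morula against ICM (1) it was 0 and 0 in the pools, 2 with DESeq2 and with limma, and 1 to 1 without an embryo. For LB HYPO against EPI (0) DESeq2 called 1. For Sph HYPO against EPI (0) DESeq2 and limma called 2, all groups in one fit 1, and leaving out an embryo 0 to 1 (1 without EPI embryo D, DAB2). Between neighbouring groups in order of level, 2 differences passed, and 4 with mean log2(TPM + 1).

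The sign turned for these differences, none of them called. TEAD1 in TE against morula was -0.11 in the pools with higher numbers, -0.52 with limma and -0.18 to 0.29 on leaving out an embryo. TEAD1 in TE against LB HYPO was -1.07 in the pools with higher numbers, as was GATA3 at -2.94 in LB HYPO against EPI and GATA2 at -0.38 in morula against ICM. TFAP2A was -0.81 in LB HYPO against EPI in the pools with lower numbers. In Sph HYPO against EPI, TEAD1 was -2.32 in the pools with lower numbers, -0.28 with limma, -1.35 with the embryo as a block and -2.23 to 0.63 on leaving out an embryo, and TFAP2A was -4.88, -0.38 with the block and -1.76 to 1.39. In the order of levels, mean log2(TPM + 1) turned DAB2 of Sph EPI over LB EPI (-0.206), TEAD1 of Sph EPI over LB HYPO (-0.361; -0.035 without TMM), TEAD1 of Sph HYPO over LB EPI (-0.083) and TFAP2A of LB HYPO over Sph HYPO (-0.152). The cause was not tested.

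The block changed the call of GATA2 in TE against ICM and no other call of a regulator. Over all genes, the block gave 89 calls instead of 111 there, 20 instead of 283 in the LB and 82 instead of 167 in the Sph. The total called in TE against ICM was 457 with DESeq2, 865 with all groups in one fit, 226 with limma, 205 without E6-ER2 and AB6, 39 and 9 in the pools, and 58 to 184 on leaving out an embryo. In TE against morula (119) these were 601, 894, 375, 225, 20 and 50, and 56 to 219. For morula against ICM (361), DESeq2 gave 1216, limma 666 and the pools 38 and 132. For TE against LB EPI (741), one fit gave 2165, limma 1218 and the pools 164 and 276, with 351 to 744 on leaving out an embryo. TE against LB HYPO (416) had 869 with DESeq2, 1256 in one fit, 238 and 77 in the pools and 193 to 472 on leaving out an embryo. LB HYPO against EPI (283) had 1387 with DESeq2, 170 in one fit, 696 with limma, 113 and 64 in the pools and 138 to 294; Sph HYPO against EPI (167) had 1452, 95, 367, 149 and 89, and 78 to 583. The difference between stages (6) had 13 without TMM, 10 without the filter and 0 to 165. With 1 to 19 cells per sum and 3 to 10 embryos per group, a difference that missed the threshold is not shown to be absent. Of 42 shares of cells above TPM 1, thinning cells to 1000000 counts moved none beyond its interval. A limit of TPM 10 moved 7, such as TFAP2A in Sph EPI from 37.5 to 2.08% and in the morula from 68.1 to 42.6%, and a limit of TPM 0 moved DAB2 in the ICM from 41.7 to 70.8%.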
